A study of Homo sapiens with 6 samples.

Results

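The semaphorins, plexins and neuropilins are a guidance family of secreted or membrane-bound ligands and their cell-surface receptors. Members were all probe sets of the array that the platform annotation gives to exactly 1 gene whose symbol begins with SEMA and a digit or with PLXN and A, B, C or D, or is NRP1 or NRP2. There were 85 such probe sets of 54613 non-control probe sets. They covered all 31 protein-coding genes of the family in RefSeq, with 45 probe sets for 20 semaphorin genes, 15 for the 2 neuropilin genes and 25 for 9 plexin genes. Of the 31 genes, 24 had over 1 probe set.

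Expression was compared between the S116D and the S116A derivative of SKOV3.ip1, a human ovarian cancer cell line, on 3 Affymetrix HG-U133 Plus arrays each. Both derivatives were stably transfected with a vector for the adaptor protein PEA-15, whose partners include the kinase ERK and the apoptosis adaptor FADD. The S116D cells carried a phosphomimetic form with aspartic acid and the S116A cells a form with alanine that cannot be phosphorylated at Ser116. For S116D the titles point to Ser116, the sample characteristics add Ser104, and the treatment text has Ser16, so the labels do not settle the substitution. They do not say how many clones were used or whether the 3 arrays of a line came from separate cultures, so each p-value reflects array-to-array spread that may be purely technical. No untransfected or empty-vector array was analysed here, and the substitution cannot be told apart from other differences between the stably transfected lines. Differences are S116D minus S116A on the log2 scale of the deposited signals.

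Median log2 signals of the 6 arrays ran from 7.86 to 7.89. The second principal component, with 20.3% of the variance, set S116D 1, S116A 1 and S116A 2 apart from S116D 2, S116D 3 and S116A 3. These sets correspond to no label, so differences are also given within them where they matter. Because the sets were taken from the same values that are tested, p-values with them as a block may be too small. A pass seen only with that block is therefore not firm. Of 8 genes that mark the carcinoma line, 7 lay above the median signal of all probe sets. So did 2 of 5 leukocyte, 3 of 4 endothelial, 3 of 5 fibroblast and 3 of 4 neuronal markers. This measure thus does not tell the cell types apart. Of the 8 carcinoma line genes, 5 were lower in S116D (limma adjusted p under 0.05 over 1 probe set per gene), all of them keratin genes apart from EPCAM. None of 14 measured leukocyte, endothelial and fibroblast markers passed that threshold, nor did 3 of 4 neuronal markers, the exception being MAP2, which was lower in S116D. The summed log2 signals of the measured markers were 36.6 to 36.8 in S116D and 36.2 to 37.0 in S116A for leukocytes, 33.4 to 33.8 in both lines for endothelium, 40.7 to 41.0 in S116D and 41.1 to 41.2 in S116A for fibroblasts, and 35.6 to 37.0 in S116D and 37.4 to 38.2 in S116A for neurons. For the carcinoma line genes the sums were 92.6 to 95.2 in S116D and 97.3 to 100.0 in S116A. Among the fibroblast markers LUM differed most (-0.45, at a low signal), and among the neuronal markers MAP2 (-1.63). The part of these shifts in the results was not tested.

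Class 3 semaphorins are secreted and signal through a complex of a neuropilin, which binds the ligand, and an A-type plexin, whose cytoplasmic part acts on small GTPases and through them on the actin cytoskeleton and integrin adhesion. Semaphorins of other vertebrate classes are membrane-bound and mostly bind plexins directly. Neuropilins also bind forms of vascular endothelial growth factor, so in carcinoma they stand between guidance, angiogenic and growth factor signalling.

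The family showed a few clear differences between the lines rather than a general one. SEMA3A and the NRP2 receptor gene were lower in S116D, and NRP1 was higher. PLXNA1 was called lower on 1 of its 3 probe sets, and that call was lost in 4 of 6 fits with an array left out. A limma adjusted p under 0.05, taken over all probe sets, was reached by 11 of the 85 member probe sets (12.9%), 3 higher and 8 lower, against 8.55% of all probe sets (4.36% higher and 4.19% lower). These 11 belonged to 6 genes, and 6 of them to the 2 neuropilin genes, so they are not independent. The S116D and S116A values were fully separate for 28 of 85 member probe sets (32.9%), against 24.0% of all. The median difference was -0.03 over the members and 0.00 over all probe sets. With 1 probe set per gene, the brightest, 6 of 31 genes passed (19.4%), against 12.2% of 19775 genes. The members' shares lie somewhat above these backgrounds, but the excess is a few probe sets and was not tested.

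**Figure D1:**
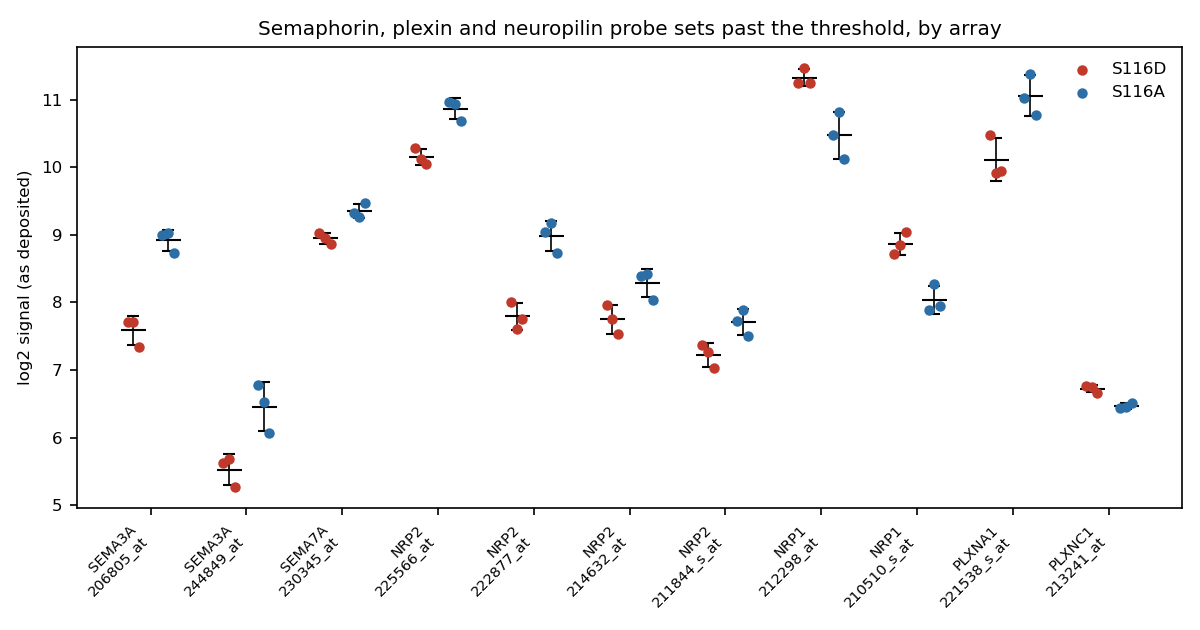
Log2 signal of each array for the 11 member probe sets with a limma adjusted p under 0.05, S116D (red, left) beside S116A (blue, right). Points are arrays, and black marks give the mean and SD of 3 arrays. The 2 lines do not overlap in any of them, with NRP1 and PLXNC1 higher in S116D and the others lower.

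Among the ligands, SEMA3A differed most. It encodes the secreted semaphorin that collapses growth cones through NRP1 and A-type plexins. Its brightest probe set (206805_at) read 7.71, 7.72 and 7.34 in the S116D arrays, against 8.99, 9.03 and 8.73 in the S116A arrays. The lowest S116A array was thus well above the highest S116D array. SEMA3A fell by 1.33 ± 0.12 (SE) on the log2 scale, a 2.51-fold lower signal in S116D (limma adjusted p = 4.9e-04). In RNA of whole cultures, fewer expressing cells and less RNA per cell cannot be told apart.

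The other SEMA3A probe sets lay in the same direction. The second (244849_at) read 5.63, 5.68 and 5.26 in S116D against 6.78, 6.52 and 6.07 in S116A, a difference of -0.93 ± 0.18 (SE) with a limma adjusted p of 0.013. The third (244163_at) read 4.69, 4.70 and 4.69 in S116D against 5.40, 5.09 and 4.84 in S116A and did not pass (-0.42, limma adjusted p = 0.068). With the array set as a block it did (-0.35, limma adjusted p = 0.047), and without S116A 3 as well (-0.55, limma adjusted p = 0.0074). Both lay below the lower quartile of probe set signals, 6.65, where folds are not exact. The call on the brightest probe set held under each of 15 alternatives, including each array left out (limma adjusted p at most 0.0044). The second lost its call without S116A 2 (limma adjusted p = 0.060).

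SEMA3A stands in a run of class 3 genes on chromosome 7. RefSeq places no other protein-coding gene between SEMA3E, SEMA3A and SEMA3D, and 3 (HGF, CACNA2D1 and PCLO) between SEMA3C and SEMA3E. No such fall was seen in SEMA3E and SEMA3D, both dim, and values of CACNA2D1 and PCLO are not given here. SEMA3E, a ligand that binds PLXND1 without a neuropilin, read 4.94, 4.82 and 4.82 in S116D against 4.86, 4.83 and 4.90 in S116A, near the bottom of the scale. The 2 probe sets of SEMA3D differed by -0.08 and 0.12, also at signals below the lower quartile, so a difference in these 2 genes may be below what the array resolves.

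SEMA3C, a class 3 ligand of both neuropilins, was bright and did not pass. Its brighter probe set read 12.39, 12.05 and 12.29 in S116D against 12.37, 12.46 and 12.54 in S116A, a difference of -0.21 (95% interval -0.44 to 0.02, limma adjusted p = 0.30). SEMA3F, the preferred class 3 ligand of NRP2, differed in the other direction. Its brightest probe set read 11.84, 11.53 and 11.52 in S116D against 11.35, 11.47 and 11.23 in S116A. The lines did not overlap, but the difference of 0.28 (95% interval 0.03 to 0.53) had a limma adjusted p of 0.19. All 3 SEMA3F probe sets differed in the same direction, by 0.09 to 0.28. With these array sets, taken from the same values, as a block the brightest gave 0.36 (limma adjusted p = 0.0043). Within the sets it differed by 0.43 and 0.29. SEMA3B and SEMA3G, single probe sets below the median signal, differed by 0.08 and 0.06 and did not pass.

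SEMA7A, the semaphorin held in the membrane by a lipid anchor and acting through integrins and PLXNC1, was lower on 1 of its 2 probe sets. That probe set (230345_at) read 9.02, 8.95 and 8.86 in S116D against 9.32, 9.27 and 9.47 in S116A. The lines were apart, and the fall of 0.41 ± 0.09 (SE), or 1.33-fold, had a limma adjusted p of 0.021. The other probe set differed by -0.03 (95% interval -0.21 to 0.16). The call was lost without S116D 2, S116D 3 or S116A 1 (limma adjusted p 0.065 to 0.092).

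Of the membrane-bound classes 4, 5 and 6, with 30 probe sets for 12 genes, none passed the threshold in the fit without a block. Of all probe sets 8.55% did. An unadjusted limma p under 0.05 was reached by 2 of the 30, against 19.7% of all probe sets. With the array set as a block, SEMA4F, a class 4 member, passed on 2 of its 3 probe sets, by 0.24 (210124_x_at, limma adjusted p = 0.034) and 0.28 (228660_x_at, 0.014). The first of these differed by 0.25 and 0.23 within the sets and by 0.16 without the block (limma adjusted p = 0.52). Without the block the differences of the 30 probe sets ran from -0.20 to 0.24. SEMA4G, a class 4 member, came nearest. It read 9.79, 9.84 and 9.64 in S116D against 9.45, 9.60 and 9.48 in S116A, without overlap, a difference of 0.24 (95% interval 0.04 to 0.44, limma adjusted p = 0.15). With the array set as a block it gave 0.26, which passed over 1 probe set per gene (limma adjusted p = 0.043) and not over all probe sets (0.066). SEMA4D, the ligand of PLXNB1, differed by -0.10 (95% interval -0.30 to 0.11) on its brighter probe set. SEMA5B (0.03, interval -0.14 to 0.19) and SEMA6C (0.02, interval -0.15 to 0.18) had narrow intervals around 0. SEMA6A, a ligand of PLXNA2 and PLXNA4, differed by -0.16 (interval -0.34 to 0.01) on its brightest probe set and by 0.03 on the next, and the others of its 5 gave -0.14 to 0.08. Among the rest of these genes the brightest probe set differed by 0.13 for SEMA4A, -0.20 for SEMA4B, -0.04 for SEMA4C, 0.16 for SEMA4F, -0.02 for SEMA5A, -0.01 for SEMA6B and -0.07 for SEMA6D.

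In class 4 the lines were fully separate for 1 of 12 probe sets, against 24.0% of all probe sets. The 2 sets of arrays were so for 6 of 12, against 20.0% of all members and 18.6% of all probe sets. SEMA4B read 11.97, 11.54 and 11.52 in S116D against 11.93, 12.19 and 11.52 in S116A. Its high arrays were S116D 1, S116A 1 and S116A 2, and within the sets the lines differed by -0.08 and 0.01.

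**Figure D2:**
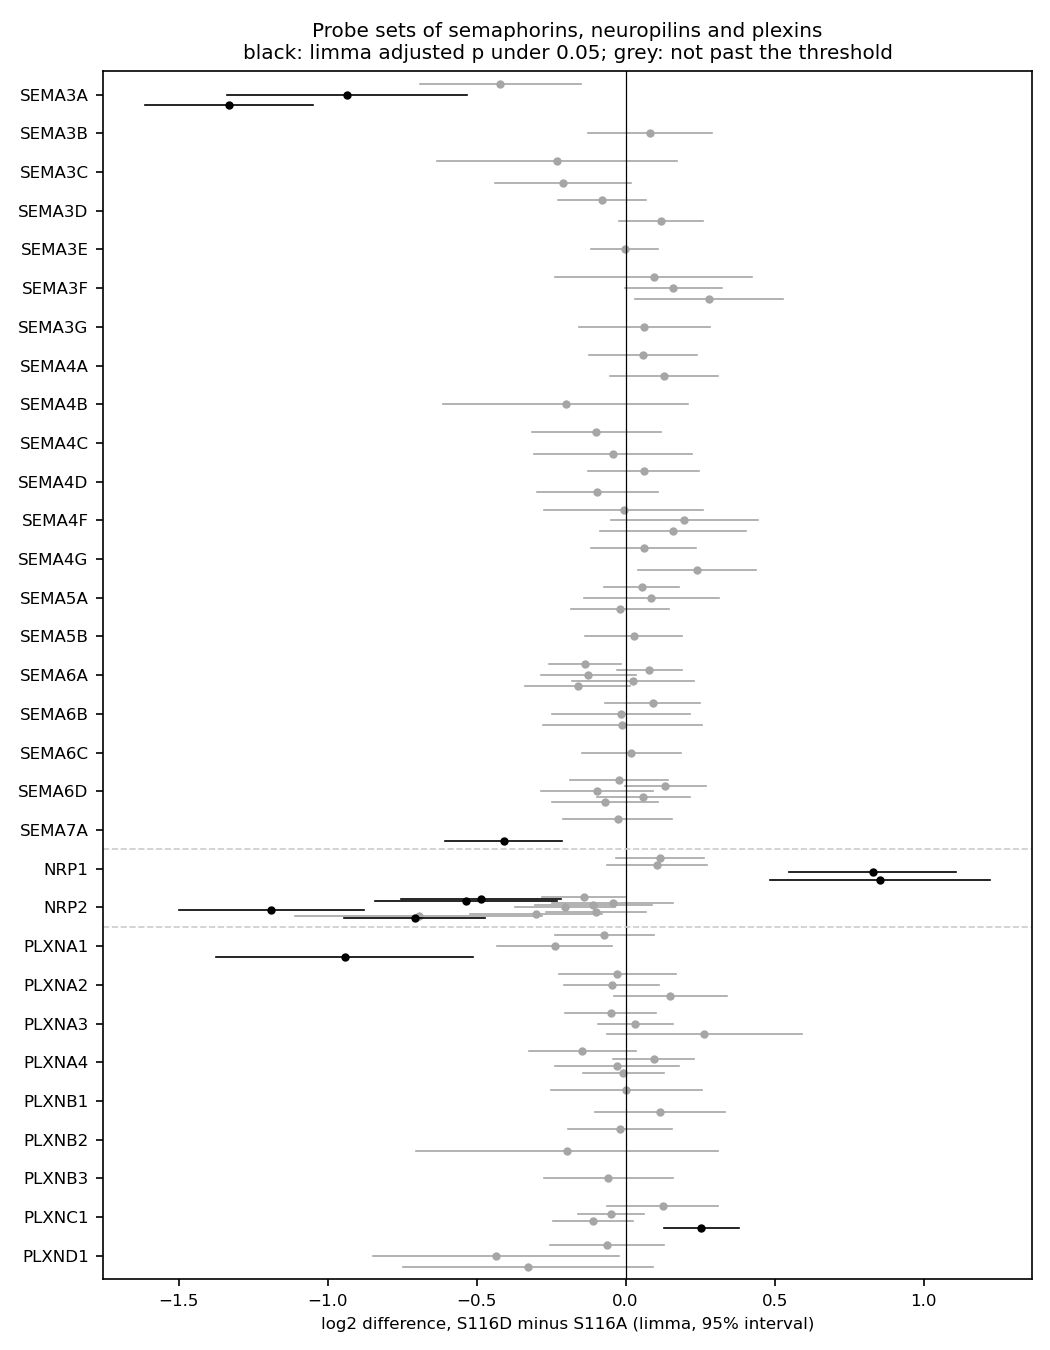
Log2 difference, S116D minus S116A, of each of the 85 member probe sets with its 95% interval, by gene, with semaphorins, neuropilins and plexins separated by dashed lines. Black marks have a limma adjusted p under 0.05. Most intervals lie around 0, while SEMA3A, NRP2 and PLXNA1 extend to the left, to as far as -1.33, and NRP1 to the right, up to 0.85.

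The neuropilin genes moved in opposite directions. NRP1, the receptor subunit for SEMA3A and for VEGFA, was higher in S116D. Its brightest probe set (212298_at) read 11.25, 11.47 and 11.25 in S116D against 10.47, 10.81 and 10.12 in S116A. All S116D arrays lay above all S116A arrays, and the S116A arrays varied more among themselves. The rise was 0.85 ± 0.16 (SE), or 1.81-fold (limma adjusted p = 0.014).

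A second NRP1 probe set (210510_s_at) read 8.71, 8.84 and 9.04 in S116D against 7.88, 8.27 and 7.95 in S116A, a rise of 0.83 ± 0.12 (SE), or 1.78-fold, with a limma adjusted p of 0.0044. These 2 probe sets gave differences within 1 standard error of each other. The remaining 2, below the lower quartile at mean signals of 6.62 and 5.42, differed by 0.11 and 0.12 and did not pass. The call on the brightest was lost without S116D 2 (limma adjusted p = 0.064) or S116A 1 (0.054), whereas that on the second held under all 15 alternatives. Within the sets of arrays the brightest differed by 0.61 and 1.23 and the second by 0.64 and 0.99.

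NRP2, the receptor subunit for SEMA3F and for the lymphangiogenic factor VEGFC, was lower in S116D. Its difference was below 0 on all 11 of its probe sets, and 4 of them passed. The brightest (225566_at) read 10.29, 10.13 and 10.05 in S116D against 10.97, 10.93 and 10.69 in S116A. The lines were apart, and the fall of 0.71 ± 0.10 (SE), or 1.63-fold, had a limma adjusted p of 0.0043. The largest fall was on 222877_at, with 8.01, 7.61 and 7.76 in S116D against 9.04, 9.17 and 8.73 in S116A, or 1.19 ± 0.14 (SE) and 2.28-fold (limma adjusted p = 0.0014). These 2 calls held under each of 15 alternatives (limma adjusted p at most 0.026).

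The size of the NRP2 difference depended on the probe set. Falls of 0.48 (211844_s_at) and 0.54 (214632_at) passed with limma adjusted p of 0.038 and 0.043. Both calls were lost without S116D 2, S116D 3, S116A 1 or S116A 2 (limma adjusted p 0.10 to 0.15). Probe set 229225_at read 9.81, 9.45 and 9.52 in S116D against 10.49, 10.52 and 9.85 in S116A and missed the threshold in the fit without a block (-0.69, limma adjusted p = 0.052). With the array set as a block it passed (-0.53, limma adjusted p = 0.0020), and across its alternatives the adjusted p ran from 0.0020 to 0.18. The other 6 gave -0.30 to -0.04 without passing, although 219367_s_at (-0.30, limma adjusted p = 0.11) passed with array weights (-0.35, limma adjusted p = 0.034). The 2 calls that held and the weakest difference (228699_at, -0.04, 95% interval -0.25 to 0.16) did not overlap in their intervals. NRP2 makes transcripts with different ends, including membrane-bound and secreted forms, and which of them each probe set reads was not examined here. With the array-wise median over all probe sets of the gene, NRP2 fell by 0.24 and NRP1 rose by 0.47, both still past the threshold (limma adjusted p = 0.041 and 0.014).

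**Figure D3:**
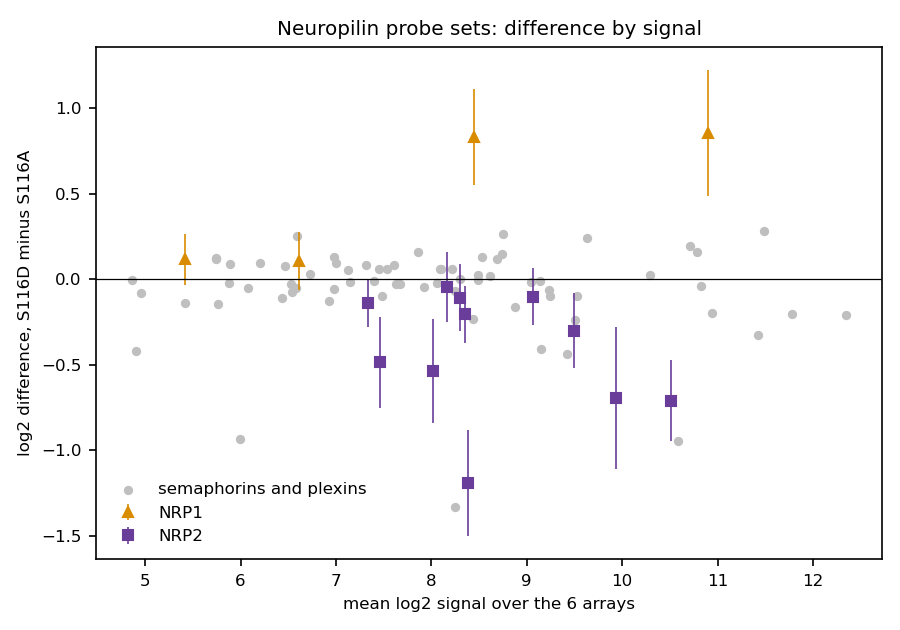
Log2 difference, S116D minus S116A, against the mean log2 signal over the 6 arrays for the 4 NRP1 (triangles) and 11 NRP2 (squares) probe sets, with 95% intervals, and for the other members (grey points). All NRP1 points lie above 0 and all NRP2 points below it, and the 2 bright NRP1 probe sets stand near 0.85.

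Among the plexins, PLXNA1 differed most. It encodes the A-type plexin that pairs with neuropilins in the receptors for class 3 semaphorins. Its brightest probe set (221538_s_at) read 10.48, 9.91 and 9.95 in S116D against 11.03, 11.37 and 10.77 in S116A. The lines did not overlap, although S116D 1 lay nearer to the S116A arrays than the other S116D arrays did. The fall of 0.94 ± 0.19 (SE), or 1.92-fold, had a limma adjusted p of 0.017. The other PLXNA1 probe sets differed by -0.24 (limma adjusted p = 0.15) and -0.07 (0.72). The call was lost without S116D 2, S116D 3, S116A 1 or S116A 2 (limma adjusted p 0.062 to 0.077), and within the sets of arrays the brightest differed by -0.72 and -0.84.

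PLXNA1 and NRP2 encode partners of 1 receptor complex and were both lower in S116D. The 250 bases before their annotated starts in RefSeq (assembly GRCh38.p14) are shown, 5′ to 3′, because they belong to these partners. The promoter set used here held no entry for SEMA3A or NRP1, so no stretch is shown for them. The NRP2 stretch is chr2:205682251-205682500 and the PLXNA1 stretch chr3:126982865-126983114, both on the plus strand. Capitals mark matches, on either strand, to the SP1 box GGGCGG and to the TCF/LEF core CTTTGNA.
NRP2: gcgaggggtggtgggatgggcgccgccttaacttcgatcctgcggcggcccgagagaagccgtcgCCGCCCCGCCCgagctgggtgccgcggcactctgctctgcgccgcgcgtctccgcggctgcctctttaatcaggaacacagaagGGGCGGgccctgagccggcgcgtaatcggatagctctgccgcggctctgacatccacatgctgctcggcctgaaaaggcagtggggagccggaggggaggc
PLXNA1: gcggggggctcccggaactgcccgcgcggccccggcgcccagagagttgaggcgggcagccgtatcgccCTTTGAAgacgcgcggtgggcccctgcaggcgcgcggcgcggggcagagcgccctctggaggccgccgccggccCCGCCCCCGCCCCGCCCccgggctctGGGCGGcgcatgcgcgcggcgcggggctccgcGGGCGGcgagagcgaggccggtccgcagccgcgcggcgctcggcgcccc
Both stretches are rich in G and C, at 70.0% and 84.4%, against a median of 58.0% over 35116 RefSeq promoters of that length. NRP2 has 3 matches to the SP1 box and PLXNA1 has 5, and a match occurs in 42.6% of all promoters and in 62.5% of 48 promoters of 27 family genes. The 1 TCF/LEF match lies in PLXNA1 (12.8% of all promoters). Neither stretch holds the AP-1 letters TGANTCA (6.57% of all promoters), the TEAD letters GGAATG (11.9%) or the E-box CAGGTG (17.5%). Matches to the SP1 box overlap each other in places, and none overlaps the TCF/LEF match. The matches describe these letters only, since binding was not measured.

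The other A-type plexins did not pass. PLXNA2 differed by 0.15 (95% interval -0.04 to 0.34) on its brightest probe set. PLXNA3 read 9.11, 8.73 and 8.80 in S116D against 8.63, 8.85 and 8.36 in S116A, with overlap and a difference of 0.26 (limma adjusted p = 0.38), which became 0.39 with the array set as a block (limma adjusted p = 0.0098). The 4 probe sets of PLXNA4 lay below the median signal and differed by -0.14 to 0.09. PLXNC1, the receptor of SEMA7A, rose on 1 of its 4 probe sets, with 6.76, 6.75 and 6.67 in S116D against 6.44, 6.45 and 6.52 in S116A (0.25 ± 0.06 SE, limma adjusted p = 0.024). All 4 lay below the lower quartile, the others differed by -0.11 to 0.12, and the call was lost without S116D 1, S116D 2, S116A 1 or S116A 2 (limma adjusted p 0.062 to 0.092).

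None of the B-type plexins, the receptors of class 4 semaphorins, passed in the fit without a block, nor did PLXND1. PLXNB2 read 11.27, 10.59 and 10.67 in S116D against 11.18, 11.32 and 10.61 in S116A. Again S116D 1, S116A 1 and S116A 2 were the high arrays, and within the sets the lines differed by 0.02 and 0.02. PLXNB1 differed by 0.12 (95% interval -0.10 to 0.33) on its brighter probe set and PLXNB3 by -0.06. PLXND1, which takes part in vascular patterning as the SEMA3E receptor, read 11.66, 11.11 and 11.01 in S116D against 11.70, 11.76 and 11.30 in S116A on its brightest probe set. The difference of -0.33 (95% interval -0.75 to 0.09) had a limma adjusted p of 0.41, and within the sets it was -0.07 and -0.24. All 3 PLXND1 probe sets differed in this direction, by -0.43 to -0.06. Over 1 probe set per gene PLXND1 passed without S116D 1 (-0.53, limma adjusted p = 0.048) and with array weights (-0.51, limma adjusted p = 0.038).

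Partners and effectors of the family were examined in 4 lists, with 1 probe set per gene and p-values adjusted over all 19775 genes. The lists were drawn up with earlier results of these data known. Of 92 measured genes 17 passed (against 12.2% of all genes), 2 higher and 15 lower, where 6.79% and 5.39% of all genes were higher and lower. With lists drawn up in this way, these counts are not read as an excess, and none was tested. Of the 92 genes 76 lay above the median signal of all probe sets. Among other neuropilin ligands and co-receptors 4 of 20 fell and none rose, with a median of -0.15, against 0.01 over all genes. VEGFC, which binds NRP2 and FLT4, read 8.47, 8.05 and 7.86 in S116D against 9.55, 9.71 and 9.40 in S116A. It was thus low in every S116D array, by 1.43 ± 0.15 (SE) or 2.69-fold (limma adjusted p = 7.6e-04). MET, the hepatocyte growth factor receptor and a co-receptor of PLXNB1, fell by 0.58 ± 0.06 (SE) at a bright signal and was called on 3 of its 4 probe sets (limma adjusted p = 7.6e-04). KDR, the VEGFA receptor, fell by 0.43 at signals below the lower quartile, and NRCAM, an adhesion molecule that associates with neuropilins, by 0.51. The NRCAM call was lost without any 1 of 4 arrays (S116D 2, S116D 3, S116A 1 or S116A 2, limma adjusted p 0.099 to 0.12) and with the median of its 2 probe sets (limma adjusted p = 0.10). The brightest members not called, ITGB1 and ERBB2, differed by 0.02 and 0.39, and ERBB2 by 0.66 with the array set as a block (limma adjusted p = 1.9e-04).

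Of 18 GTPases and regulators downstream of plexins TIAM1 alone passed on its brightest probe set, against 12.2% of all genes. This RAC activator fell by 0.65 ± 0.11 (SE), or 1.57-fold (limma adjusted p = 0.0059), and was called on 1 of its 2 probe sets. RAC1 differed by -0.23 on its brightest probe set (limma adjusted p = 0.17, and 0.046 without S116D 1), and RHOA by 0.15 (0.080, and 0.026 with the array set as a block). In the fit over all probe sets, where 8.55% were called, 1 of 4 probe sets of RAC1 was called. So were 2 of 3 for RRAS2 and 1 of 4 for RAP1A, small GTPases named after their values were seen. In the other lists 1 of 3 probe sets was called for each of FER, SLIT3 and NEO1, also named after their values were seen. These 3 did not pass on their brightest probe set. The median of the GTPase list was -0.11.

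Of 21 cytoskeletal effectors and kinases 5 fell and none rose, where 5.39% and 6.79% of all genes were lower and higher. The median of the list was -0.03. FYN, a SRC-family kinase that acts at plexin A receptors in the SEMA3A response, read 10.38, 10.22 and 10.39 in S116D against 11.94, 11.73 and 11.80 in S116A. Every S116D array was more than 1 log2 unit below every S116A array, and the fall of 1.49 ± 0.09 (SE), or 2.82-fold, had a limma adjusted p of 4.4e-05. It was called on 3 of 5 probe sets. DPYSL3, a collapsin response mediator protein of the family that relays SEMA3A to microtubules, read 9.80, 10.20 and 9.99 in S116D against 11.24, 11.32 and 11.16 in S116A, and was called on 1 of 3 probe sets. It fell by 1.24 ± 0.11 (SE), or 2.36-fold (limma adjusted p = 3.5e-04). With the brightest probe set whose identifier ends in a plain _at, FYN differed by -0.05 and DPYSL3 by -0.05, and neither passed (limma adjusted p 0.74 and 0.66).

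The kinase gene GSK3B, whose product phosphorylates these mediators, fell by 0.51 (limma adjusted p = 0.0046) and was called on 2 of its 5 probe sets. A further fall was that of DPYSL5, another mediator, named after its values were seen (-0.42, limma adjusted p = 0.035), which lost its call without S116D 2, S116D 3, S116A 1 or S116A 2 (0.087 to 0.13) and on the median of its 2 probe sets (0.18). CFL1, cofilin, and MICAL2, an actin-oxidising enzyme of a family that binds plexins, were the brightest genes not called and differed by 0.01 and -0.03.

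**Figure D4:**
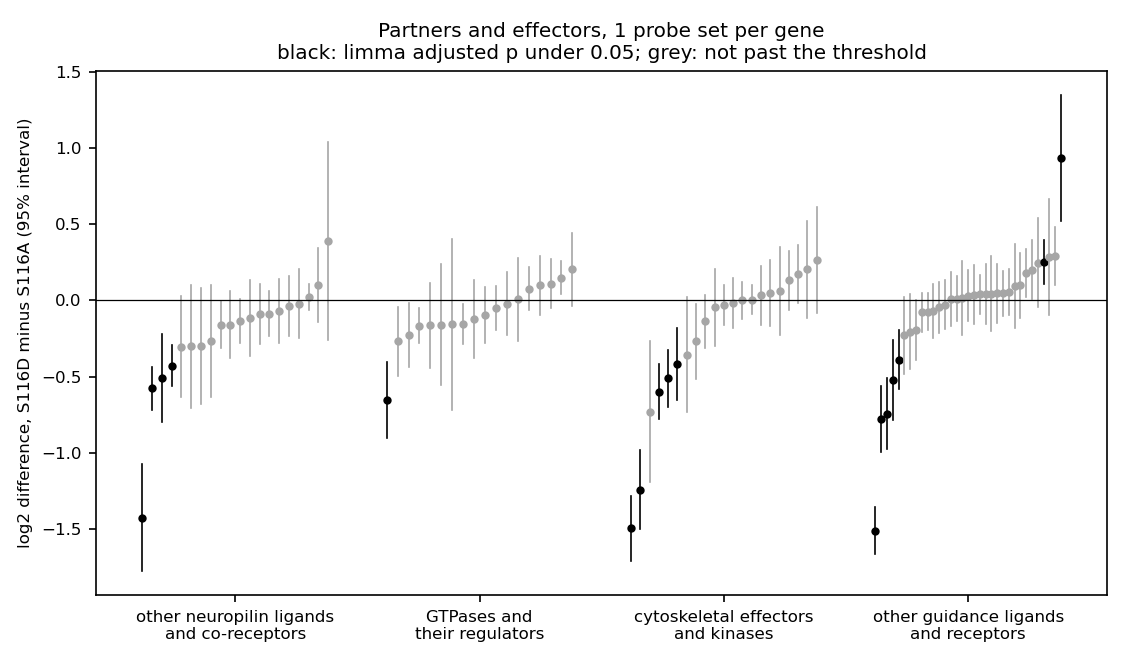
Log2 difference, S116D minus S116A, with 95% intervals for the 92 measured partner, effector and other guidance genes, 1 probe set each, sorted within 4 lists. Black marks have a limma adjusted p under 0.05. The genes past the threshold are below 0 in the first 3 lists, and 2 of 7 are above it in the last.

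Other guidance systems gave calls in both directions. The list held netrin, Slit, Robo, ephrin and Eph genes, DCC, NEO1 and genes of the UNC5 and RGM families. Of its 33 measured genes 5 fell and 2 rose, where 5.39% and 6.79% of all genes were lower and higher. The median of the list was 0.03. NTN4, a netrin that binds laminin, read 11.64, 11.70 and 11.79 in S116D against 13.24, 13.21 and 13.21 in S116A, a fall of 1.51 ± 0.07 (SE) or 2.85-fold (limma adjusted p = 8.5e-06). The arrays of each line lay close together, and the gap between the lines was many times their spread. The Eph receptor gene EPHA2 fell by 0.78 and NTN1, encoding netrin-1, by 0.74 (limma adjusted p = 0.0013 and 0.0024), NTN1 being called on 1 of its 3 probe sets and differing by 0.03 on their median. EFNB3, a transmembrane ephrin, rose by 0.93 ± 0.18 (SE), or 1.91-fold (limma adjusted p = 0.012, and 0.060 without S116A 1). It was called on 1 of its 2 probe sets. The ephrin genes EFNB1 and EFNB2 fell by 0.39 and 0.52, EFNB2 being called on 1 of its 2 probe sets. ROBO3, a Slit receptor family member, rose by 0.25, but its only probe set was not called in the fit over all probe sets. These last 3 were named after their values were seen, to complete the counts, and lost their calls without S116D 2, S116D 3, S116A 1 or S116A 2 (limma adjusted p 0.063 to 0.13), ROBO3 also without S116D 1 (0.064). EFNA1 and EFNA5, the brightest genes not called, differed by -0.20 and 0.04.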

How the data were processed

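Biotin-labelled cRNA was made from total RNA, according to the labels' protocols, and read on Affymetrix HG-U133 Plus arrays. The authors deposited a log2 signal for each of 54675 probe sets on each array. MAS5 and RMA are named, without roles, in the submitters' processing notes; no version or filter is given in the sources used here. A log2 scale was inferred from the range, 4.34 to 15.33, and the nearly equal quartiles. The table has no detection calls, so no probe set was called absent, and differences of dim probe sets may be understated.

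Control probe sets (62) were left out. Genes came from the platform annotation and were given their current RefSeq symbols (GRCh38.p14) by identifier: 41091 probe sets had 1 gene, 1801 several and 11721 none here. A further probe set naming a family gene beside another gene was not used. Groups came from sample titles. limma 3.58.1 in R 4.3.3 (lmFit, eBayes with intensity trend, no covariates) was run on all 54613 probe sets, and for the partner lists on the probe set with the highest mean of each of 19775 genes, p-values being adjusted by Benjamini-Hochberg and called under 0.05. It was tested on simulated data. Standard errors are limma's, intervals are 95%, and each fold is the antilog of its log2 difference. Permuting 3 against 3 arrays exactly would give no p under 0.1. The small number of arrays limits the precision.

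Named were member genes with a called probe set or one above the median signal, up to 4 called genes per partner list and the 2 brightest genes not called. Others were named, with values, after these were seen. A called gene of the partner lists is counted but not reported here by name. Members, lists and tests were chosen with earlier results of these data known. Alternatives were quantile normalization, median centring, 2 filters on dim probe sets, eBayes without trend, array weights, the replicate number or the 2 sets of arrays as a block, a threshold of 0.01, each array left out, and for genes the median, the mean or the brightest plain _at probe set. Promoter sequences are RefSeq's.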

Additional observations from a re-analysis of the deposited data

How the results depend on the processing

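Counts of calls depended on single arrays. With each array left out in turn, 5 to 13 member probe sets were called (1 to 3 higher, 4 to 10 lower), 2 to 7 member genes (0 to 2 higher, 2 to 5 lower), 11 to 21 partner genes (0 to 2 higher, 11 to 20 lower) and 2608 to 4674 of all probe sets; 6 of the 11 member calls were lost without S116D 2 and 6 without S116A 1, and none without S116A 3. All 11 calls were kept under quantile normalization, median centring, eBayes without trend, array weights and both blocks. The labels do not say whether same-numbered arrays were paired, and the main fit does not pair them. Same-numbered arrays deviated together in 2 of 3 pairs (residual correlations 0.45, -0.04 and 0.44), so these values do not settle it. With the replicate block 15 member probe sets (added were NRP2 229225_at, limma adjusted p = 0.0096, NRP2 219367_s_at, 0.043, SEMA3A 244163_at, 0.022, and PLXND1 212235_at, 0.041) and 6 partner genes in the higher direction were called, and the number of all probe sets called was 7340, against 4672 without it. With the 2 array sets as a block 17 member probe sets (7 higher), 10 member genes (6 higher), 28 partner genes (11 higher) and 8099 of all probe sets were called. These sets were taken from the same values, so p-values with that block may be too small. Calls over all probe sets rose with both blocks, and counts over all genes are not given for these settings. The changes in member and partner counts are therefore not read as particular to them. At a threshold of 0.01 there were 4 member probe sets (1 higher, 3 lower), 2 member genes (0 higher, 2 lower), 11 partner genes (0 higher) and 2130 of all probe sets. Filters on dim probe sets left 1 member gene higher in each case, since PLXNC1 lay below both. Taking the median over each gene's probe sets left 3 member genes (1 higher, 2 lower) and the mean 1 higher.

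The directions that turned were all of differences that had not passed, apart from NTN1, and the cause was not tested. With array weights NRP2 228699_at gave 0.0039, CFL1 -0.019 and EFNA5 -0.038. With the array-set block SEMA6C gave -0.0029, PLXNB2 0.018 (-0.20 without the block), SEMA6B 0.076 and SEMA4C 0.046. The CFL1 gene log2 difference was -0.00646 with median centring, -0.054 on the median and -0.039 on the mean of its probe sets, NTN1 0.029 on the median and MICAL2 0.011 on the mean. With an array left out, the ranges were -0.11 to 0.045 for NRP2 228699_at, -0.062 to 0.029 for SEMA5A, -0.107 to 0.081 for SEMA6B, -0.167 to 0.032 for SEMA4C, -0.017 to 0.043 for SEMA6C, -0.022 to 0.022 for CFL1 and -0.062 to 0.114 for EFNA5. Dim probe sets limit what can be resolved: 20 of 85 members lay below the lower quartile of signals.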
